A study of Homo sapiens with 12 samples.

Results

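The lysosomal module described here holds 52 named genes for lysosomal enzymes, lysosomal membrane proteins, the proton pump of the lysosome (V-ATPase) and the MiT/TFE transcription factors. Its members were the entries of the deposited gene table with these symbols on assembled chromosomes, and all 52 were found among 46931 genes. MCF10A is an immortalised, non-tumorigenic human mammary epithelial cell line, labelled wild type in every group. The 4 groups had 3 libraries each, lettered a, b and c. In siYT_XMU and siYT_DMSO the cells were transfected with 11 nM siRNA sets against YAP and TAZ, the transcriptional co-activators at the end of the Hippo pathway. In siC_XMU and siC_DMSO they were transfected with 22 nM control siRNA, so the stated siRNA dose differed between the arms, and whether the 11 nM counts each set was not clear from the labels. At 48 h after transfection, siYT_XMU and siC_XMU received 5 µM XMU-MP1, an inhibitor of the Hippo kinases MST1 and MST2, while siYT_DMSO and siC_DMSO received the solvent DMSO, and all cells were collected 6 h later. The study's title concerns a non-canonical Hippo pathway acting on deltaNp63, and the comparisons below ask how the lysosomal genes differed after the siRNA against YAP and TAZ and after the kinase inhibitor.

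Lysosomes break down proteins, glycans and lipids in an acidic lumen. The V-ATPase pumps protons into that lumen with a membrane-embedded V0 sector and a cytosolic V1 sector that hydrolyses ATP, and heavily glycosylated membrane proteins such as LAMP1 and LAMP2 line the inside of the limiting membrane. TFEB, TFE3 and MITF are related factors that bind a short palindrome, the CLEAR element, in the promoters of many lysosomal genes, and they are held in the cytoplasm by phosphorylation when nutrients are plentiful.

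The CLEAR core is the sequence that links these factors to the enzymes and pump subunits, so the promoter windows of the members that carry the whole 8-letter core TCACGTGA are shown first. Each window runs from 80 bases before to 10 bases after the start of transcription in RefSeq on GRCh38.p14, reads 5′ to 3′ on the strand of the gene, and has each TCACGTGA in capitals.
LAMP1 (chr13:113297159-113297248, plus strand): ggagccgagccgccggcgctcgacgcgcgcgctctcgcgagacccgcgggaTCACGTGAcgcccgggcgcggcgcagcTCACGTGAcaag
ATP6V0D1 (chr16:67481148-67481237, minus strand): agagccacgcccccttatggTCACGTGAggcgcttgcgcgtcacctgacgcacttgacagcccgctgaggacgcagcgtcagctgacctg
GAA (chr17:80101501-80101590, plus strand): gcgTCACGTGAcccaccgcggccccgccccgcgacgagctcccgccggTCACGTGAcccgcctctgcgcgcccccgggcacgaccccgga
MCOLN1 (chr19:7522544-7522633, plus strand): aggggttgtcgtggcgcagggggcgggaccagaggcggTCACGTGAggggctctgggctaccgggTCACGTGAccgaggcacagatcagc
CTSA (chr20:45891255-45891344, plus strand): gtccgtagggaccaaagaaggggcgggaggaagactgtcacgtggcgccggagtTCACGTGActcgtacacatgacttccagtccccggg
LAMP1, GAA and MCOLN1 each held the core at 2 places in this window, and ATP6V0D1 and CTSA at 1 place.

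RefSeq promoter entries, which span 250 bases before to 50 bases after a start, were matched for 37 of the 52 members, with 58 promoters in all. The 6-letter E-box CACGTG, which lies inside the CLEAR core and reads the same on both strands, was in 10 of these 37 genes (27.0%), against 8.78% of all 27305 genes with an entry. TCACGTGA, also the same on both strands, was in 5 of the 37 (13.5%), against 1.18% of all genes with an entry. For comparison, GGAATG, the letters bound by the TEAD partners of YAP and TAZ, was found on either strand in 5 of the 37 (13.5%) and in 16.7% of all genes. TGANTCA, the AP-1 motif, was on either strand in 3 of the 37 (8.11%) and in 9.37% of all genes in the table. These shares are descriptions of the windows, and a gene with several starts had several windows in which to hold a match.

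**Figure D1:**
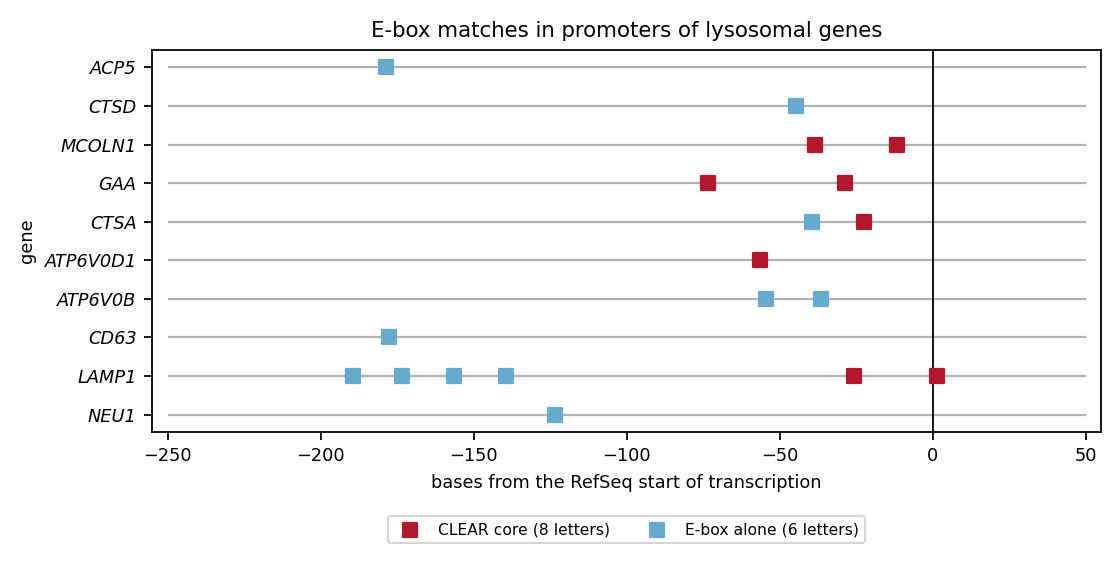
Positions of CACGTG in member promoters, as bases from the RefSeq start of transcription on the horizontal axis (position 0 is the start), with 1 line per gene. Red squares are E-boxes within the full 8-letter CLEAR core and blue squares are E-boxes alone. The red squares lie close to the start in all 5 genes that hold the core.

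Depth ranged between 8243351 and 67953633 counts per library. The shallowest library was siYT_XMU c, in which 35.0% of counts fell on ribosomal RNA genes. The counts of called members and many of the changes of members named below from siYT_XMU are therefore also given without it. Changes and counts of genes outside the module are given with it only. The share on ribosomal RNA genes was 5.38% and 2.65% in siYT_XMU a and b and 1.86% to 8.35% in siYT_DMSO, against 1.02% to 2.52% in siC_XMU and 1.05% to 2.15% in siC_DMSO, so it stood higher in most siYT libraries, and its part in the results of the siRNA was not tested. YAP1 had 6.63, 3.81 and 5.39 CPM (counts scaled to the size of the library) in siYT_XMU and 12.6, 9.09 and 7.84 CPM in siYT_DMSO, against 132, 135 and 142 CPM in siC_XMU and 201, 223 and 193 CPM in siC_DMSO. WWTR1, which encodes TAZ, had at most 4.47 CPM in any siYT library and at least 24.0 CPM in any siC library, so both targets followed the labels. The epithelial markers KRT5, KRT8, KRT17, KRT18, EPCAM and CDH1 were expressed in every group. Of the 7 epithelial markers listed, 2 rose and 4 fell with the siRNA in DMSO, and their sum was 5736 to 13273 CPM in siYT_DMSO and 8850 to 9958 CPM in siC_DMSO, and the part of this in the results below was not tested. Among markers of other cell types, CALCR and OCSTAMP, both osteoclast genes, and TYR, a melanocyte gene, were at 0 in every library. Others of these lists were present, such as the leukocyte gene CD14 with 23.3 to 41.5 CPM in siYT_DMSO and 36.5 to 52.6 CPM in siC_DMSO. The 5 fibroblast markers summed to 23.04 to 132 CPM in siYT_XMU and 22.8 to 62.0 CPM in siYT_DMSO, against 15.8 to 26.4 CPM in siC_XMU and 11.3 to 24.2 CPM in siC_DMSO, and none of the 4 that could be tested passed with the siRNA. In siYT_XMU a, b and c the leukocyte gene LYZ had 0, 5.03 and 58.6 CPM, PTPRC 0, 0.541 and 5.59 CPM and the fibroblast gene COL1A2 0, 2.84 and 33.4 CPM, and TYROBP and MLANA had 2.28 CPM each in c.

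After the siRNA against YAP and TAZ, most of the lysosomal genes stood higher. In siYT_DMSO against siC_DMSO, 32 of the 51 members tested rose and 5 fell, each at a Benjamini-Hochberg adjusted p under 0.05 in edgeR's quasi-likelihood test. Over all 18143 genes tested, 16.1% rose and 16% fell by the same rule. ACP5, counted as higher here and in XMU-MP1 below, passed the low-count filter only through the siYT libraries, where it was high. Its call is therefore no independent support for a rise of the members. Among genes with a mean of at least 10 CPM, a comparison added after the values were seen, 28 of 44 members rose (63.6%), against 22.4% of all such genes, and 5 fell, against 23.2% of all such genes. Here and in XMU-MP1 below, that mean takes in the siYT libraries, and SYT7 and ATP6V1C2 reach it only through them. The median log2 fold change was 0.86 over the 51 members and 0.02 over all genes tested, and the first of these does not move with ACP5 set to its lower bound given below. All 3 siYT_DMSO libraries lay above all 3 siC_DMSO libraries for 36 members, and below them for 6, where 26.2% and 27.9% of all genes separated in these directions. Of the 37 calls, 26 held in all 17 alternative settings, and ACP2, ASAH1, ATP6V0B, ATP6V1C1, ATP6V1E1, CD63, NPC1, PSAP, SCARB2 and SGSH, all higher, were lost in at least 1. ATP6V1C2 had no adjusted p from DESeq2 and was called in the other 16. The members' counts summed to 11473 ± 964 CPM in siYT_DMSO and 4921 ± 375 CPM in siC_DMSO (SD, n = 3 each). These are bulk samples, in which a change in the share of cells of a type and a change in RNA per cell cannot be told apart. The remaining member, NEU1, a sialidase, was listed at 0 counts in all 12 libraries and could not be tested. On chromosome 6, 23 of the 33 genes listed from AIF1 to NEU1 were at 0 in all libraries, among them VARS1, a tRNA synthetase, and LSM2, a splicing factor subunit, which all cells use, so the 0 of NEU1, and that of the macrophage gene AIF1, is not read as absence of expression.

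**Figure D2:**
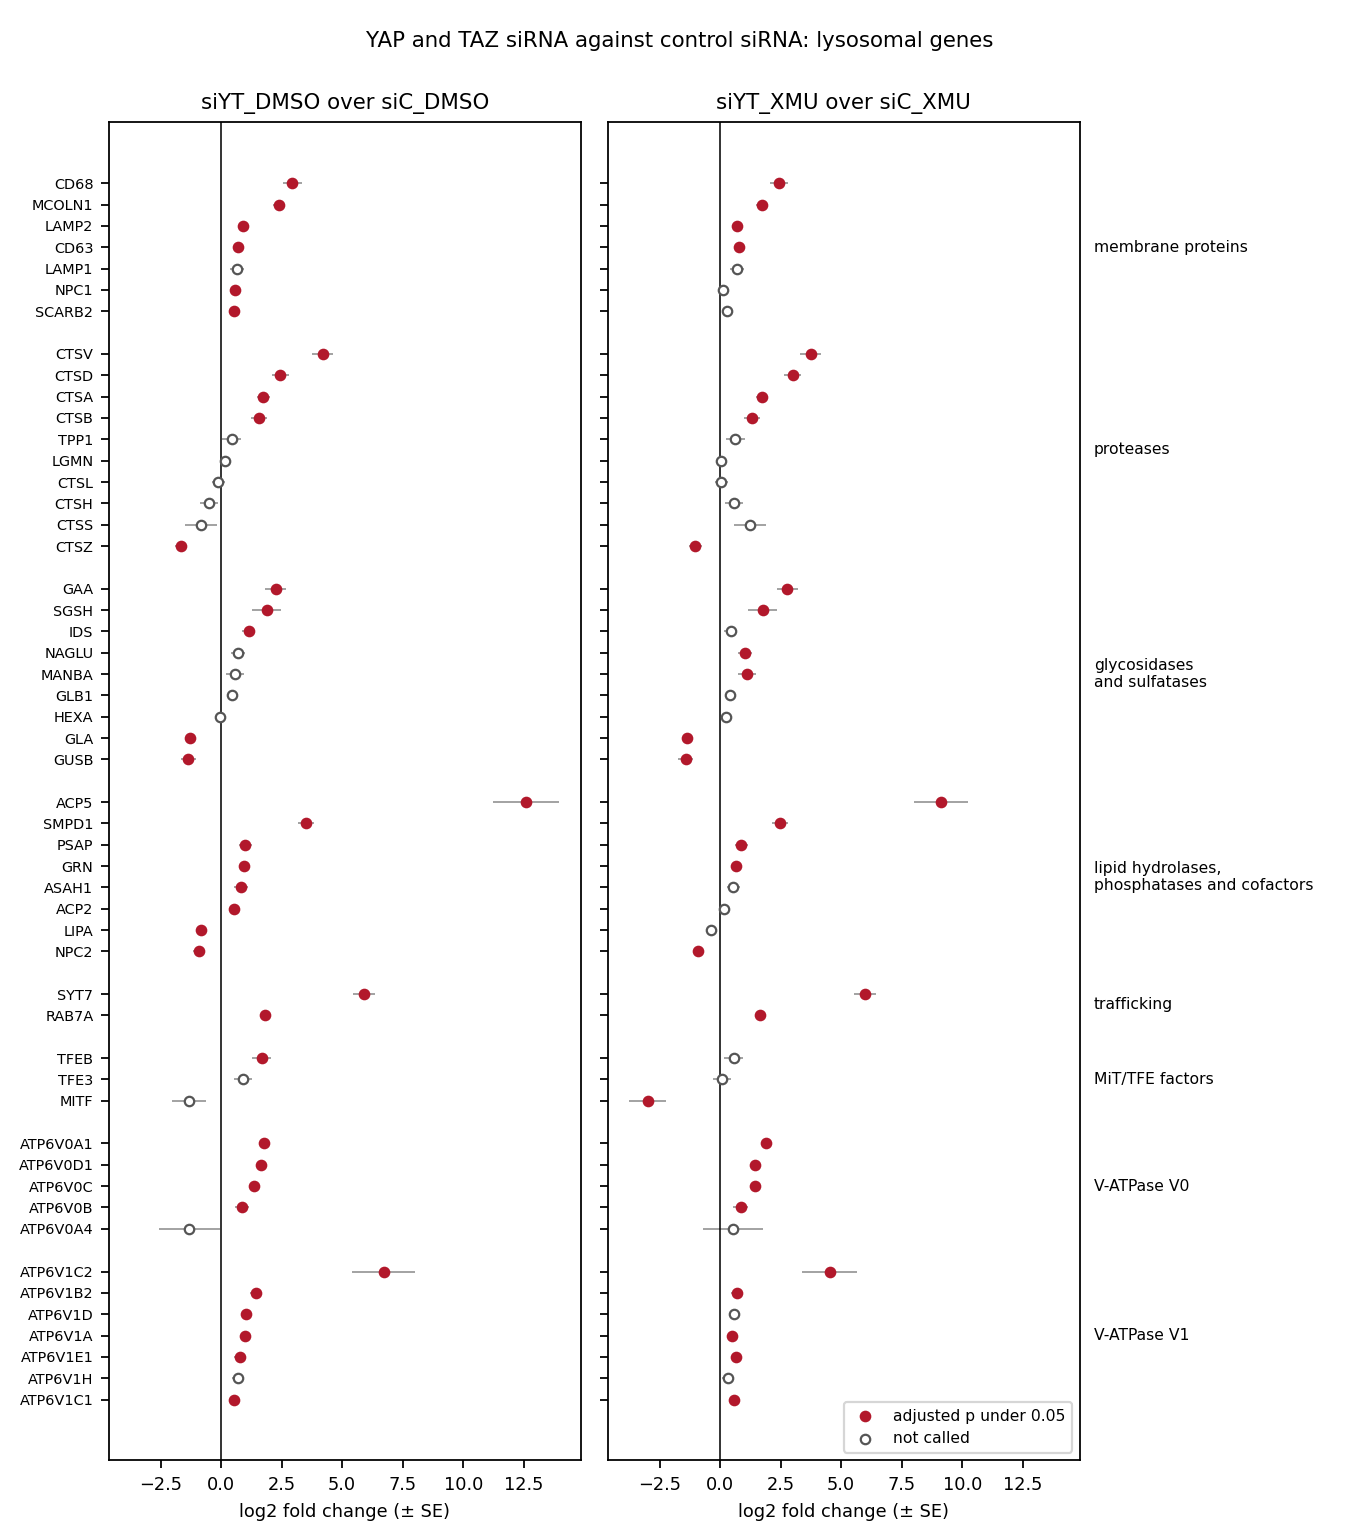
Log2 fold change (horizontal axis, with its standard error as a bar) of 51 members after siRNA against YAP and TAZ, with DMSO in the left panel (siYT_DMSO over siC_DMSO) and with XMU-MP1 in the right panel (siYT_XMU over siC_XMU), grouped by role. Filled points passed an adjusted p of 0.05, which in the left panel are 32 points right of 0 and 5 left of it, and the position of ACP5 depends on a small count added in the fit because its control libraries were at or near 0.

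Per kilobase of transcript, CTSD was the most abundant member in siC_DMSO at 323 ± 45.2 FPKM (fragments per kilobase of transcript scaled to depth, SD, n = 3), ahead of ATP6V0C at 247 ± 15.7 FPKM and CTSZ at 192 ± 34.1 FPKM. CTSZ, NPC2 at 160 ± 16.8 FPKM and PSAP at 158 ± 23.7 FPKM did not differ beyond their spread. In siYT_DMSO CTSD was at 1541 ± 334 FPKM, ATP6V0C at 551 ± 54.2 FPKM and CTSZ at 53.0 ± 18.4 FPKM.

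Of the 7 membrane proteins, 6 rose in siYT_DMSO and none fell. CD68, a heavily glycosylated scavenger receptor family protein of late endosomes, had 60.4, 63.9 and 112 CPM in siYT_DMSO and 7.63, 8.69 and 14.4 CPM in siC_DMSO. The groups did not overlap, and the log2 fold change was 2.94 (SE 0.38, adjusted p = 0.00012). MCOLN1, the lysosomal calcium channel TRPML1, had 49.0, 77.4 and 64.1 CPM in siYT_DMSO and 10.9, 12.99 and 12.6 CPM in siC_DMSO. Every siYT_DMSO library thus held MCOLN1 above every control library, with a log2 fold change of 2.39 (SE 0.25, adjusted p = 3.1e-05). LAMP2, which also serves chaperone-mediated autophagy, rose by 0.88 (SE 0.18, adjusted p = 0.0024). The tetraspanin CD63, the cholesterol exporter NPC1 and SCARB2, a lysosomal membrane protein and sorting receptor, rose by 0.68, 0.56 and 0.53 on the log2 scale. The call of NPC1 (adjusted p = 0.043) was lost in 10 of 17 alternatives (adjusted p up to 0.19). LAMP1 averaged 360 ± 31.4 CPM in siYT_DMSO and 228 ± 18.7 CPM in siC_DMSO, did not overlap between the groups, and missed the threshold with all libraries in the fit (log2 0.66, adjusted p = 0.095). Without siYT_XMU c, which enters the estimate of the spread shared by all groups, the same test gave adjusted p = 0.022 for LAMP1. CD68 is also a macrophage gene. The 7 leukocyte markers summed to 33.7 to 57.7 CPM in siYT_DMSO and 38.9 to 57.2 CPM in siC_DMSO, 1 of the 3 that could be tested (CSF1R) rose and none fell, and the part of other cells in the CD68 result was not tested.

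Both trafficking genes rose. SYT7, a calcium sensor for the fusion of lysosomes with the plasma membrane, had 55.5, 30.4 and 39.6 CPM in siYT_DMSO and 0.796, 1.01 and 0.303 CPM in siC_DMSO. That is a log2 fold change of 5.89 (SE 0.45, adjusted p = 4.1e-06), with no overlap. RAB7A, the GTPase of late endosomes and their fusion with lysosomes, had 498, 683 and 751 CPM in siYT_DMSO and 181, 182 and 185 CPM in siC_DMSO. It rose by 1.82 (SE 0.17, adjusted p = 1.7e-05), and its control libraries were nearly level with each other.

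**Figure D3:**
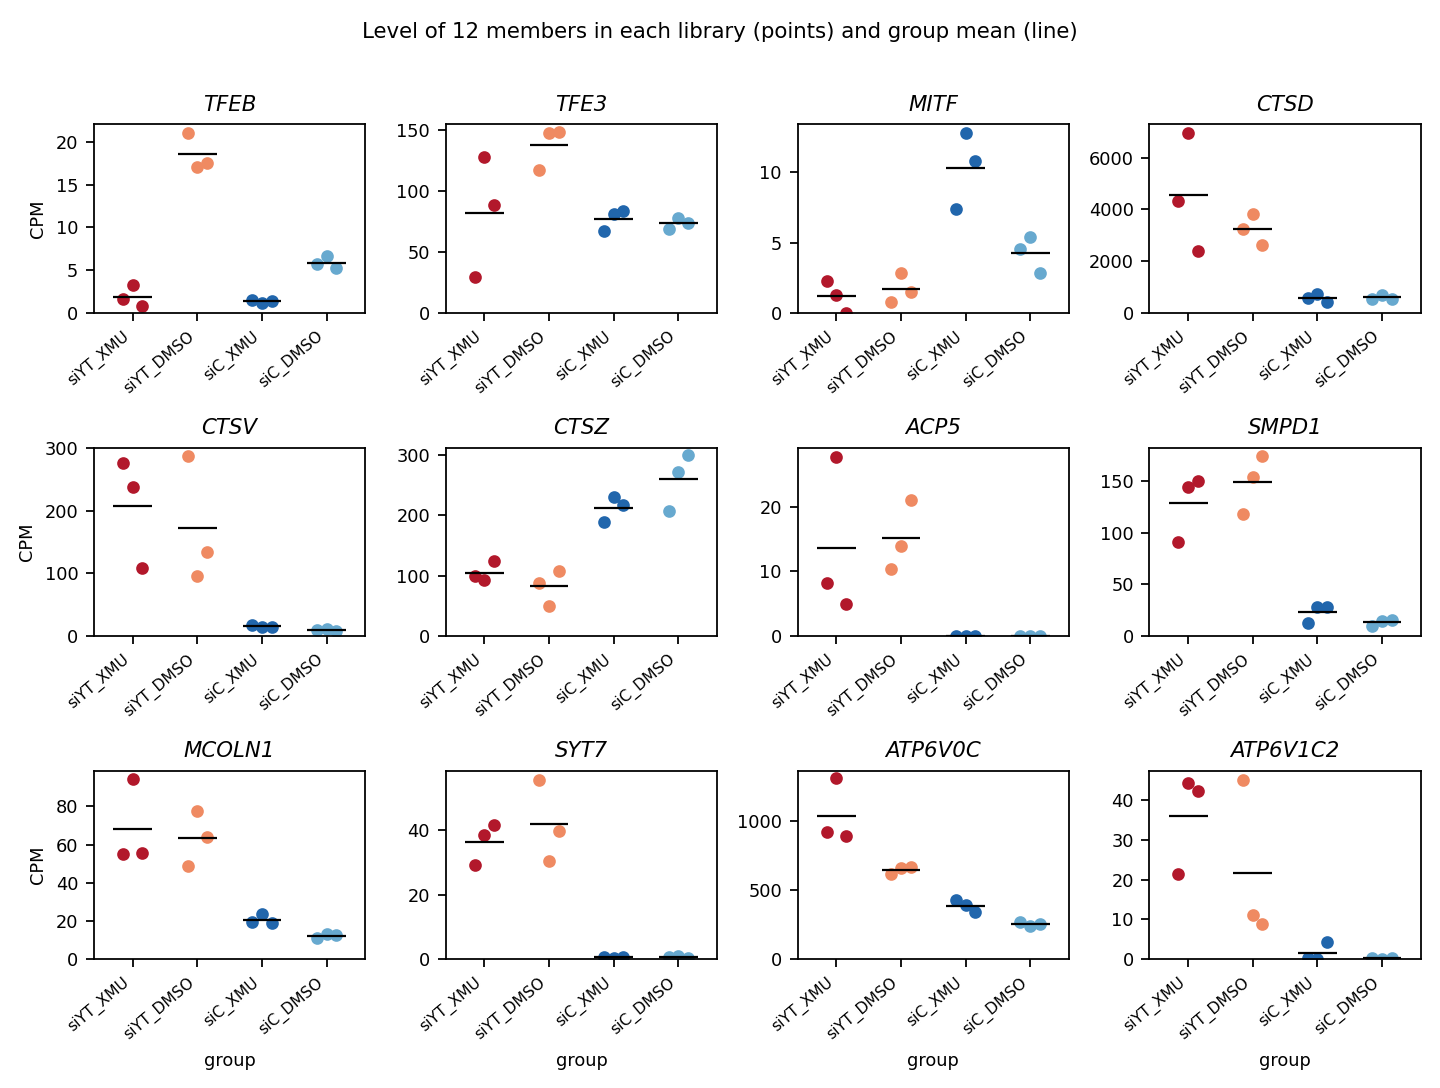
CPM of 12 members on the vertical axis, on a linear scale from 0, in each library (points a, b and c from left to right) by group, with the group mean as a line. SYT7, ACP5, CTSV and SMPD1 are high in both siYT groups, CTSZ is low in both, and TFEB is high in siYT_DMSO alone.

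Among the 10 proteases, 4 rose and 1 fell. CTSD, the aspartic protease cathepsin D, had 3245, 3830 and 2641 CPM in siYT_DMSO and 548, 696 and 545 CPM in siC_DMSO. The lowest siYT_DMSO library was far above the highest control library, with a log2 fold change of 2.44 (SE 0.36, adjusted p = 0.00030). CTSV, a cysteine protease whose close paralogue is CTSL, had 287, 96.8 and 135 CPM in siYT_DMSO and 9.42, 11.5 and 7.60 CPM in siC_DMSO. It rose by 4.19 (SE 0.44, adjusted p = 3.2e-05), with library a highest in siYT_DMSO. CTSL itself averaged 113 ± 46.8 CPM in siYT_DMSO and 123 ± 15.8 CPM in siC_DMSO and did not pass the test (log2 -0.12, SE 0.26, adjusted p = 0.78). Per kilobase, CTSV made up 37.6 ± 17.5% of CTSV plus CTSL in siYT_DMSO and 3.04 ± 0.69% in siC_DMSO, although reads shared by the paralogues could have been assigned to either. CTSA, a carboxypeptidase that also protects other lysosomal enzymes, and CTSB, a cysteine protease, rose by 1.74 (adjusted p = 0.00026) and 1.57 (adjusted p = 0.0034). CTSZ, a carboxypeptidase of the cathepsin family, went the other way, with 88.2, 50.4 and 108 CPM in siYT_DMSO and 207, 271 and 299 CPM in siC_DMSO (log2 -1.66, SE 0.26, adjusted p = 0.00043). LGMN, TPP1, CTSH and CTSS had log2 fold changes between -0.83 and 0.44 and none passed.

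The glycosidases and sulfatases were divided, with 3 of 9 tested rising and 2 falling. GAA, which degrades glycogen, averaged 8.16 ± 0.055 CPM in siYT_DMSO and 1.72 ± 0.94 CPM in siC_DMSO (log2 2.25, adjusted p = 0.0020). SGSH, a heparan sulfatase, rose by 1.88 (adjusted p = 0.034) at levels under 12 CPM, and IDS, an iduronate sulfatase with a pseudogene copy that makes its count uncertain, by 1.13 (adjusted p = 0.0073). GLA, the alpha-galactosidase, averaged 17.4 ± 2.6 CPM in siYT_DMSO and 42.2 ± 7.0 CPM in siC_DMSO and fell by 1.28 on the log2 scale (adjusted p = 0.00059). GUSB, the beta-glucuronidase, averaged 15.4 ± 3.8 CPM in siYT_DMSO and 39.2 ± 2.9 CPM in siC_DMSO and fell by 1.35 (adjusted p = 0.0043). GUSB also has pseudogene copies, so its level is uncertain. HEXA, a beta-hexosaminidase subunit, had 71.5 ± 7.2 CPM in siYT_DMSO and 73.1 ± 4.7 CPM in siC_DMSO, a difference smaller than either spread, and GLB1, NAGLU and MANBA did not pass.

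The 8 lipid hydrolases, phosphatases and cofactors passed the test, 6 higher and 2 lower, although 3 of these calls (ACP2, ASAH1 and PSAP) depended on the libraries used. ACP5, the tartrate-resistant acid phosphatase, had 10.4, 14.0 and 21.0 CPM in siYT_DMSO and was at 0 in all 3 siC_DMSO libraries. Against 3 counts in each control library, it was at least 362-fold higher (adjusted p = 9.5e-05). ACP5 is a classical osteoclast marker. The 5 osteoclast markers of a separate list summed to 17.8 to 272 CPM in siYT_DMSO and 3.80 to 16.1 CPM in siC_DMSO, with OCSTAMP and CALCR at 0, MMP9 carrying most of the sum and 1 of the 2 that could be tested (MMP9) called higher, and their part in the ACP5 result was not tested. SMPD1, the acid sphingomyelinase, had 118, 154 and 174 CPM in siYT_DMSO and 9.59, 14.4 and 15.6 CPM in siC_DMSO. It rose by 3.50 (SE 0.34, adjusted p = 1.8e-05) and did not overlap between the groups. PSAP, the precursor of the saposins that present lipids to hydrolases, GRN (progranulin), the ceramidase ASAH1 and the acid phosphatase ACP2 rose by 0.996, 0.94, 0.82 and 0.52. ASAH1 overlapped between the groups, and the calls of ACP2 and ASAH1 were each lost in 6 of 17 alternatives (adjusted p up to 0.17 and 0.15). That of PSAP was lost without siC_DMSO a, siYT_DMSO b or siYT_DMSO c (adjusted p up to 0.070). NPC2, which hands cholesterol to NPC1, averaged 109 ± 8.1 CPM in siYT_DMSO and 208 ± 22.8 CPM in siC_DMSO and fell by 0.93 (SE 0.22, adjusted p = 0.0060). LIPA, the acid lipase, averaged 54.9 ± 4.9 CPM in siYT_DMSO and 97.9 ± 15.4 CPM in siC_DMSO and fell by 0.83 (SE 0.16, adjusted p = 0.0016).

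In the proton pump no member was called lower. Of 5 V0 members 4 rose and of 7 V1 members 6 rose, with medians of 1.34 and 0.997 on the log2 scale. ATP6V0C, the proteolipid of the rotating ring, had 619, 657 and 666 CPM in siYT_DMSO and 268, 239 and 257 CPM in siC_DMSO (log2 1.34, SE 0.18, adjusted p = 0.00015). ATP6V0A1, the ubiquitous form of subunit a, averaged 178 ± 34.8 CPM in siYT_DMSO and 52.9 ± 2.0 CPM in siC_DMSO and rose by 1.75 (SE 0.18, adjusted p = 3.0e-05). ATP6V0D1 rose by 1.65 and ATP6V0B by 0.86. ATP6V0A4, the form of subunit a known from kidney, had 1.38, 0.445 and 0 CPM in siYT_DMSO and 0.628, 1.76 and 2.05 CPM in siC_DMSO, overlapping levels that did not pass (log2 -1.32, SE 1.26, adjusted p = 0.47). ATP6V1C2, the tissue-restricted form of subunit C, had 45.2, 11.2 and 8.83 CPM in siYT_DMSO and 0.306, 0.0637 and 0.248 CPM in siC_DMSO. It rose by 6.72 (SE 1.30, adjusted p = 0.0020), with library a well above b and c. The common form ATP6V1C1 averaged 90.6 ± 20.1 CPM in siYT_DMSO and 62.0 ± 3.9 CPM in siC_DMSO and rose by 0.55 (SE 0.19, adjusted p = 0.041). The calls of ATP6V0B and ATP6V1C1 held in only 9 and 8 of 17 alternatives (adjusted p up to 0.15 and 0.16). Per kilobase, ATP6V1C2 made up 21.0 ± 19.2% of the pair in siYT_DMSO and 0.36 ± 0.23% in siC_DMSO. ATP6V1A and ATP6V1B2, which form the catalytic hexamer, rose by 0.997 and 1.42, ATP6V1D and ATP6V1E1, of the central and outer stalks, by 1.04 and 0.77, and ATP6V1H, a regulatory subunit, had 0.69 and did not pass (adjusted p = 0.058).

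**Figure D4:**
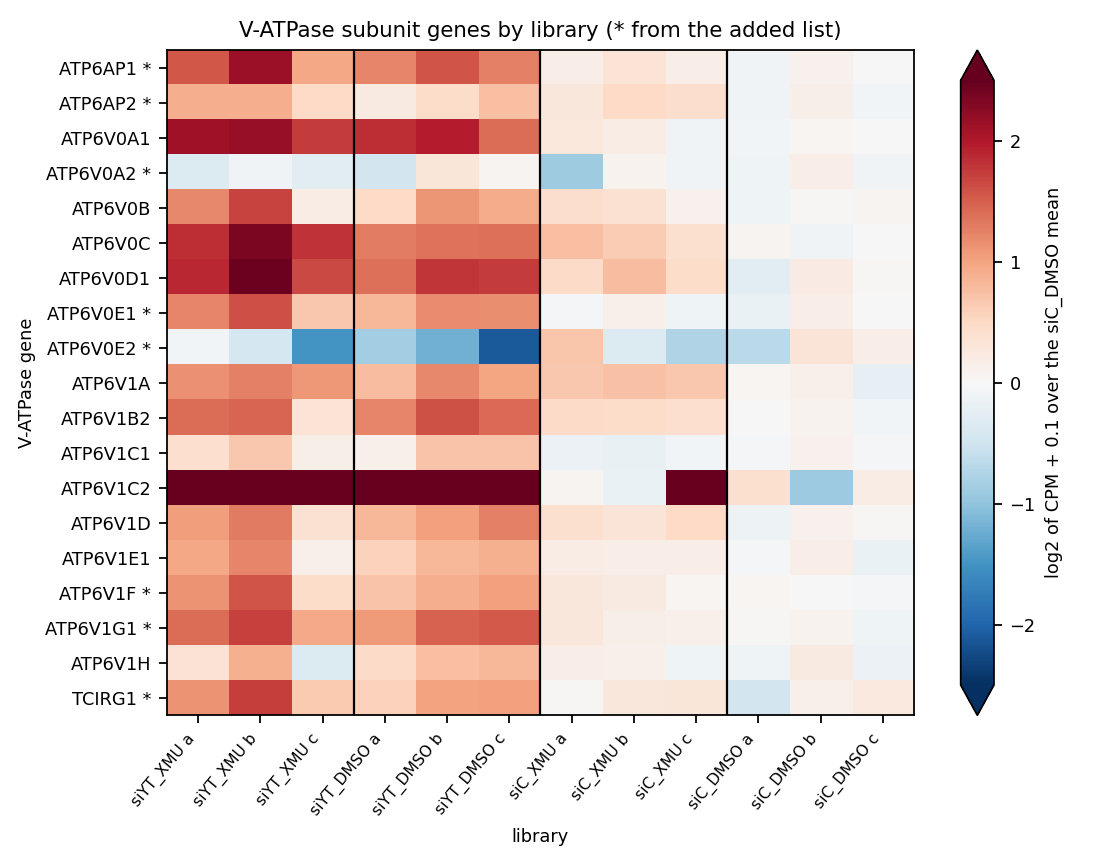
Log2 of CPM + 0.1 over the mean of that quantity in siC_DMSO (colour, red above and blue below 0, darkest past the ends of the scale) for 19 V-ATPase genes with a mean of at least 10 CPM over all libraries, by library; 8 genes marked with a star are no members. Values in siYT libraries are mostly above 0, and ATP6V0E2 and ATP6V0A2 are the genes with most of their siYT values near or below 0. The mean takes in the siYT libraries, and ATP6V1C2 reaches 10 CPM only through them.

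TFEB was the factor of the MiT/TFE family called with the siRNA in DMSO when all libraries were in the fit. It had 21.1, 17.1 and 17.6 CPM in siYT_DMSO and 5.70, 6.68 and 5.21 CPM in siC_DMSO. The libraries were far apart and closely grouped, and TFEB rose by 1.67 (SE 0.39, adjusted p = 0.0060). TFE3 averaged 138 ± 17.7 CPM in siYT_DMSO and 73.6 ± 4.7 CPM in siC_DMSO, with no overlap, and missed the threshold (log2 0.91, SE 0.38, adjusted p = 0.087). It was called higher in 4 of 17 alternatives (adjusted p from 0.00087 to 0.20 over all of them), among them without siYT_XMU b (0.045). MITF had 0.751, 2.86 and 1.49 CPM in siYT_DMSO and 4.56, 5.42 and 2.86 CPM in siC_DMSO, lower without passing (log2 -1.32, adjusted p = 0.19). Per kilobase, TFE3 was the most abundant of the family in siC_DMSO at 24.5 ± 1.4 FPKM, against 1.78 ± 0.22 FPKM for TFEB and 0.76 ± 0.23 FPKM for MITF.

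With XMU-MP1 present in both arms the same question gave a similar count. In siYT_XMU against siC_XMU, 27 of the 51 members rose and 5 fell, where 17.7% and 18.6% of all genes did, and the median log2 fold change was 0.68 over members and 0.04 over all genes. Among genes with a mean of at least 10 CPM, 24 of 44 members rose and 4 fell, against 19.8% and 28.3% of all such genes. All 3 siYT_XMU libraries lay above all 3 siC_XMU libraries for 26 members and below them for 6, where 19.6% and 25.9% of all genes separated so. The comparisons in DMSO and in XMU-MP1 use different libraries but were fitted together. They shared 25 members called higher, which is 78.1% of the 32 in DMSO and 92.6% of the 27 in XMU-MP1. The overlap over all genes called higher was not computed, so this one is not read as particular to the members. ACP2, ASAH1, ATP6V1D, IDS, NPC1, SCARB2 and TFEB were called higher in DMSO and not in XMU-MP1, and MANBA, a beta-mannosidase, and NAGLU, a glucosaminidase, the other way round. The lower members CTSZ, GLA, GUSB and NPC2 were called in both. No member passed the interaction test of the difference between these comparisons, and with the replicate block SMPD1 did, as given below.

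In siYT_XMU the libraries were spread widely, and c lay below a and b for LAMP1, CTSB, CTSD and CTSV among others. CTSD had 4317, 6970 and 2385 CPM in siYT_XMU and 565, 730 and 423 CPM in siC_XMU, again without overlap (log2 2.99, SE 0.37, adjusted p = 9.1e-05). ACP5 had 8.25, 27.8 and 4.97 CPM in siYT_XMU and 0, 0 and 0.0607 CPM in siC_XMU (adjusted p = 0.00018). SYT7 had 29.1, 38.3 and 41.4 CPM in siYT_XMU and 0.661, 0.471 and 0.577 CPM in siC_XMU (log2 5.99, SE 0.45, adjusted p = 3.7e-06). These 3 genes kept wide gaps between the siRNA arms in every library. CTSV rose by 3.74 (SE 0.43, adjusted p = 6.4e-05), GAA by 2.78 (SE 0.45, adjusted p = 0.00055) and ATP6V1C2 by 4.53 (SE 1.15, adjusted p = 0.0091). For ATP6V1C2 the levels were 21.3, 44.4 and 42.3 CPM in siYT_XMU and 0.220, 0.174 and 4.23 CPM in siC_XMU, so that the control libraries themselves differed. SMPD1 had 91.3, 145 and 150.0 CPM in siYT_XMU and 12.9, 27.6 and 28.3 CPM in siC_XMU, and rose by 2.49 (SE 0.33, adjusted p = 0.00014). LAMP2, CTSB, ATP6V0A1 and ATP6V1C1 rose by 0.71, 1.34, 1.90 and 0.56, while LAMP1 (log2 0.70, adjusted p = 0.071), CTSL (0.05) and ATP6V0A4 (0.52) did not pass. The call of ATP6V1C1 held in only 9 of 17 alternatives (adjusted p up to 0.13). Without siYT_XMU c, CTSD rose by 3.30 (adjusted p = 2.4e-05), SYT7 by 5.88, CTSV by 4.04, GAA by 2.91, ATP6V1C2 by 4.39 (adjusted p = 0.019) and SMPD1 by 2.36 (adjusted p = 0.00050), and ACP5 was called at adjusted p = 0.00019. LAMP2, CTSB, ATP6V0A1 and ATP6V1C1 then rose by 0.76, 1.62, 2.02 and 0.68, and LAMP1 passed with 0.97 (adjusted p = 0.0050).

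MITF fell with the siRNA when XMU-MP1 was present. It had 2.26, 1.24 and 0 CPM in siYT_XMU and 7.38, 12.8 and 10.8 CPM in siC_XMU (log2 -2.99, SE 0.76, adjusted p = 0.0093). The 0 in library c allows up to 0.622 CPM, the value of 3 counts there. Without that library MITF fell by 2.57 (adjusted p = 0.0059). TFEB, at 1.56, 3.27 and 0.829 CPM in siYT_XMU and 1.54, 1.12 and 1.41 CPM in siC_XMU, overlapped between the arms and did not pass (log2 0.56, SE 0.39, adjusted p = 0.29), nor did TFE3 (0.08). With siYT_XMU c left out, TFEB had 0.83 (adjusted p = 0.062) and TFE3 0.02 (adjusted p = 0.98). Without siYT_XMU c, 32 members were called higher and 5 lower in XMU-MP1. Of these 32, 26 were among the 27 called with all libraries, MANBA was lost, and ATP6V1D, ATP6V1H, CTSH, GLB1, HEXA and LAMP1 were added. Without siC_XMU c, or without siYT_XMU b, 17 members were called higher and 5 lower. The shares over all genes in these smaller fits are not given. The leukocyte markers summed to 27.2 to 105 CPM in siYT_XMU and 8.06 to 17.3 CPM in siC_XMU, the 3 of 7 that could be tested (CD14, CSF1R and ITGAM) were called higher, and their part in the values of CD68, CTSS or any other member was not tested. CD68 was 48.2, 84.0 and 108 CPM in siYT_XMU, and CTSS, a protease of antigen-presenting cells, 1.70, 4.93 and 17.8 CPM, so that both were highest in library c, the library with the most LYZ.

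With XMU-MP1 the calls among these genes were few and moved with the setting, apart from TFEB. In siC_XMU against siC_DMSO 1 member rose and 1 fell, where 4% of all genes rose and 5.26% fell, and in siYT_XMU against siYT_DMSO 1 rose and 1 fell, where 4.19% rose and 7.92% fell. At an unadjusted p under 0.05 there were 8 members with the control siRNA and 6 with the siRNA against YAP and TAZ. The share over all genes at that cut was not computed, so these counts are not read as a result about the members. The 1 higher in the control arm became 3 with RLE size factors, 4 with the replicate block, 5 with DESeq2, 9 with the compared groups alone and 0 to 4 without 1 library, where 4 came without siYT_XMU b or c and 0 without siC_DMSO a, siC_DMSO c or siC_XMU b. The 1 higher in the YAP and TAZ siRNA arm became 4 without siYT_XMU c. Shares over all genes are given for the fit of all libraries only, so these shifts are not read as particular to the members. The member that fell was TFEB in both arms. TFEB had 1.54, 1.12 and 1.41 CPM in siC_XMU and 5.70, 6.68 and 5.21 CPM in siC_DMSO, a log2 fold change of -2.11 (SE 0.40, adjusted p = 0.0074). With the siRNA against YAP and TAZ it had 1.56, 3.27 and 0.829 CPM in siYT_XMU and 21.1, 17.1 and 17.6 CPM in siYT_DMSO, a log2 fold change of -3.21 (SE 0.42, adjusted p = 0.00070). In both arms every inhibitor library lay below every DMSO library. Between the groups as fitted, the drops were 4.32-fold and 9.28-fold. Without siYT_XMU c the changes were -2.11 (adjusted p = 0.0019) and -2.94 (adjusted p = 0.000926). The difference between the arms, -1.10 (SE 0.55), did not pass (adjusted p = 0.31), so the deeper drop with the siRNA was not shown to differ from that with the control siRNA.

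**Figure D5:**
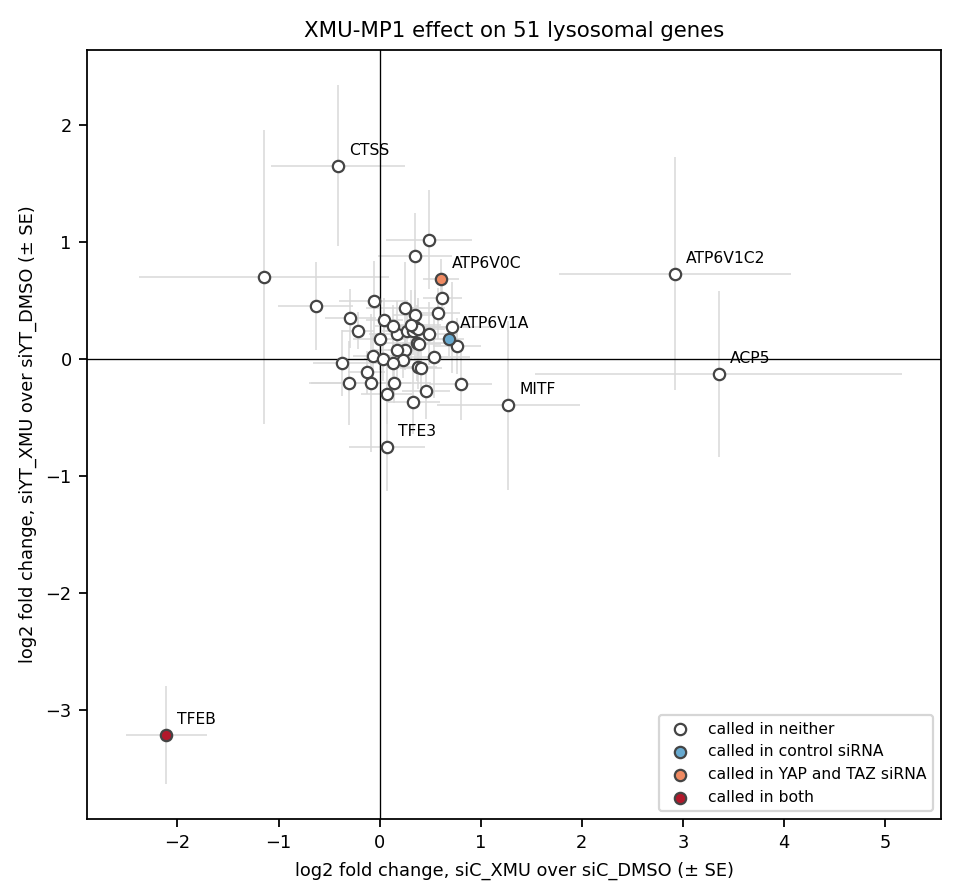
Log2 fold change with XMU-MP1 in the control siRNA arm (siC_XMU over siC_DMSO, horizontal axis) and in the YAP and TAZ siRNA arm (siYT_XMU over siYT_DMSO, vertical axis) for 51 members, with standard errors as bars and colour showing where a gene passed an adjusted p of 0.05. TFEB lies alone at -2.11 and -3.21, and most other members lie near 0 in both directions.

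The member that rose was a pump subunit in each arm, and not the same one. ATP6V1A, the catalytic subunit A, had 113, 118 and 113 CPM in siC_XMU and 74.0, 78.0 and 62.0 CPM in siC_DMSO, and rose by 0.69 (SE 0.15, adjusted p = 0.014). With the siRNA it averaged 160 ± 9.5 CPM in siYT_XMU and 142 ± 21.3 CPM in siYT_DMSO and did not pass (log2 0.17, adjusted p = 0.51). ATP6V0C had 917, 1309 and 889 CPM in siYT_XMU and 619, 657 and 666 CPM in siYT_DMSO, and rose by 0.68 (SE 0.18, adjusted p = 0.027), or by 0.78 without siYT_XMU c (adjusted p = 0.011). In the control arm it had 429, 395 and 338 CPM in siC_XMU and 268, 239 and 257 CPM in siC_DMSO, without overlap, and narrowly missed the threshold (log2 0.60, SE 0.18, adjusted p = 0.053). Neither call held without every library. ATP6V1A missed the threshold without siC_DMSO a, siC_DMSO c or siC_XMU b (adjusted p up to 0.078). ATP6V0C missed it without siC_DMSO b or c, siC_XMU b, siYT_DMSO a, b or c, or siYT_XMU b (adjusted p up to 0.084), and with the compared groups fitted alone (0.14). The separation of libraries was broader than the calls. All 3 siC_XMU libraries lay above all 3 siC_DMSO libraries for 20 of 51 members and below for 4, where 18.6% and 22.1% of all genes separated so, and the median log2 fold change was 0.27 over members and -0.02 over all genes. In siYT_XMU against siYT_DMSO 4 members separated upwards and 1 downwards, where 10.5% and 16.7% of all genes did, and the median was 0.17 over members and 0.02 over all genes.

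The other named members did not pass in either inhibitor comparison with all libraries, though some did under an alternative. LGMN was called higher in 6 of 17 alternatives in the control arm and in 3 of 17 in the YAP and TAZ siRNA arm. In the control arm SMPD1, ATP6V0D1 and ATP6V1B2 were called higher in 2 of 17 each. MCOLN1 averaged 20.7 ± 2.5 CPM in siC_XMU and 12.2 ± 1.1 CPM in siC_DMSO (log2 0.76, adjusted p = 0.070), and passed with the replicate block (0.025), DESeq2 (0.014), the compared groups alone (0.013) and without siYT_XMU b (0.028). MITF averaged 10.3 ± 2.7 CPM in siC_XMU and 4.28 ± 1.3 CPM in siC_DMSO, without overlap (log2 1.27, SE 0.71, adjusted p = 0.31), and passed with the compared groups alone (0.025). TFE3 had 29.1, 128 and 88.9 CPM in siYT_XMU and 118, 147 and 149 CPM in siYT_DMSO, where library a of siYT_XMU stood low (log2 -0.75, adjusted p = 0.23), and was called lower without siYT_XMU b (0.049). LAMP1, LAMP2, CTSB, CTSD, CTSL, ATP6V0A1 and ATP6V1C1 had log2 fold changes between -0.13 and 0.49 in both inhibitor comparisons. CTSV had 0.72 in the control arm, where it passed with the compared groups alone (0.031), and 0.27 in the YAP and TAZ siRNA arm, and the low-level genes ATP6V1C2, ATP6V0A4 and ACP5 had standard errors between 0.71 and 1.81. No member passed the interaction test, which compares the inhibitor effect in the YAP and TAZ siRNA arm with that in the control arm, where 0.86% and 1.73% of all genes did. DESeq2 also called 0, and 3 members had an unadjusted p under 0.05, namely SMPD1, ATP6V1A and ATP6V1B2, all with negative values. The share over all genes at that unadjusted cut was not computed either. With the replicate block SMPD1 was called lower (log2 -0.99, adjusted p = 0.046).

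Genes outside the module were read from a list of 71, of which 63 could be tested. Besides lysosomal genes it held 10 genes for the control of the MiT/TFE factors and 4 cystatins. Of these, 4 control genes and 4 cystatins were called higher with the siRNA in DMSO. With the siRNA in DMSO 32 of the 63 rose and 8 fell, with a median of 0.79, and in XMU-MP1 28 rose and 8 fell, with a median of 0.61. In DMSO that is 50.8% higher and 12.7% lower, where 16.1% and 16% of all genes were, and in XMU-MP1 44.4% and 12.7%, where 17.7% and 18.6% were, so the share that fell was not far from that over all genes. The 4 cystatins, which inhibit cysteine cathepsins such as CTSB, CTSL and CTSV, all rose in both comparisons. CSTA averaged 486 ± 32.7 CPM in siYT_DMSO and 46.5 ± 9.9 CPM in siC_DMSO (log2 3.38, SE 0.26, adjusted p = 4.1e-06), CSTB rose by 2.76 and CST6 by 2.20. These protease inhibitors thus rose beside CTSB and CTSV. GM2A, the activator protein for ganglioside breakdown, rose by 1.86, and ARSB, an arylsulfatase, PPT1, a palmitoyl-protein thioesterase, and LAPTM4B, a lysosomal membrane protein, fell by 2.69, 1.63 and 1.16 in DMSO. Of 10 further V-ATPase genes tested, 6 rose in DMSO, among them ATP6V1G1 (1.37) and ATP6AP1 (1.36), and 1 fell, ATP6V0E2 (-1.31, adjusted p = 0.0497).

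With XMU-MP1 2 of the 63 rose and 2 fell in the control arm, where 4% and 5.26% of all genes did, and 1 rose and 2 fell in the YAP and TAZ siRNA arm, where 4.19% and 7.92% did, so these counts were close to the shares over all genes. SLC38A9, the lysosomal arginine sensor upstream of the mTORC1 kinase that phosphorylates TFEB, had 6.59, 9.92 and 10.7 CPM in siC_XMU and 17.6, 17.1 and 15.5 CPM in siC_DMSO (log2 -0.88, SE 0.23, adjusted p = 0.034). It had 19.4, 18.4 and 18.2 CPM in siYT_XMU and 33.1, 26.4 and 41.7 CPM in siYT_DMSO (log2 -0.85, SE 0.23, adjusted p = 0.033). SLC38A9 was thus the gene of this list, as TFEB was of the module, that fell with the inhibitor in both arms. RPTOR, the substrate-binding subunit of mTORC1, fell by 1.41 in the control arm (adjusted p = 0.0064), and FNIP1, a folliculin partner, and MAN2B1, a mannosidase, rose there by 1.14 and 0.54. In the YAP and TAZ siRNA arm TMEM192 rose by 0.68 and TMEM106B fell by 0.95, both of them lysosomal membrane proteins.

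The promoter classes shown at the start can be set beside these values. Of the 9 tested members with CACGTG in a promoter, 8 rose with the siRNA in DMSO and none fell, with a median log2 fold change of 1.74, and LAMP1 was the one not called. The 27 members with an entry and no CACGTG counted 15 higher and 5 lower, with a median of 0.56. In XMU-MP1 the counts were 8 higher of 9 with CACGTG, and 9 higher and 5 lower of 27 without. Over all 18143 genes tested, 16.1% rose and 16% fell in DMSO, and 17.7% and 18.6% did in XMU-MP1. The share called among all genes with CACGTG was not computed, so these counts are not read as a result of the motif. All 4 members with an entry that fell in both comparisons had no CACGTG in these windows. The difference between these classes was not tested, and a match in 300 bases does not show that a factor was bound.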

How the data were processed

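Polyadenylated RNA of MCF10A cells was sequenced as stranded paired-end libraries, per the labels' protocols. Per the file headers, the deposited table gives whole-number counts and FPKM per gene and library, and the authors' counting settings are not given in the sources used here. The submitters' processing notes name cutadapt, FastQC, HISAT2, StringTie, edgeR and the build GRCh38.p13. Here the deposited counts were fitted in R 4.3.3 with edgeR 4.0.16 (filterByExpr, TMM scaling, quasi-likelihood F test, 4 group means over all 12 libraries, 8 residual degrees of freedom). This kept 18143 of 46931 genes. Two-sided p-values were adjusted by Benjamini-Hochberg over all of them, with calls under 0.05. CPM use TMM scaling. The deposited FPKM were not rescaled here and served to compare levels between genes and to give the shares within paralogue pairs. For CTSD, ATP6V0C and CTSZ they are also printed in both siC_DMSO and siYT_DMSO, while all calls rest on counts. A value of 3 counts, taken as the limit that a count of 0 allows, equal 0.0382 to 0.622 CPM, and this covers counting error only.

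Fixed genes (the MiT/TFE factors and chosen membrane, cathepsin and V-ATPase genes) were named in every comparison, with up to 6 called members of largest change per direction and a mean of at least 1 CPM. For genes outside the module these were the 3 called with the smallest adjusted p per direction, plus CST6 and CSTA, and a gene that this rule names is not reported here. Other members and marker genes were named after their values were seen. The members and lists were chosen with earlier results of these data known. The labels do not say that letters a, b and c are separate cultures, so the spread behind each p-value may be technical. Alternatives were DESeq2 1.42.0, RLE size factors, no low-count filter, a replicate block, the compared groups alone and leaving out each library. The code was tested on simulated data. Motifs were searched in RefSeq promoters of GRCh38.p14.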

Additional observations from a re-analysis of the deposited data

How the results depend on the processing

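No named member changed direction past a threshold under any alternative. Genes outside the module are given from the fit of all 12 libraries only. Members called higher with the siRNA in DMSO numbered 32, and 29 to 37 with DESeq2, RLE size factors, no low-count filter, the replicate block or the compared groups alone, and 22 to 35 without 1 library. Members called lower stayed at 5. With the siRNA in XMU-MP1 27 were called higher, and 21 to 31 under the same settings, and 17 to 32 without 1 library, with 5 lower in each. For these comparisons 26 and 21 members were called in all 17 alternatives. The inhibitor calls depended more on the setting. In the control siRNA arm 1 member was called higher, against 3 with RLE size factors, 4 with the replicate block, 5 with DESeq2, 9 with the compared groups alone and 0 to 4 without 1 library. In the YAP and TAZ siRNA arm 1 was called higher, against 2 with RLE size factors, 2 with the replicate block, 3 with DESeq2, 0 with the compared groups alone and 0 to 4 without 1 library. There 1 was called lower, and 1 to 2 without 1 library, the second being TFE3 without siYT_XMU b. The interaction had 0 calls, and 1 lower (SMPD1) with the replicate block. TFEB was lower in both inhibitor comparisons under all 17 alternatives. The cause of these shifts was not tested. Shares over all genes are given for the main fit only, so a change in these counts is not read as particular to the members. Same-letter libraries of different groups were weakly correlated, with 2 of 18 correlations over 0.1 (range -0.03 to 0.16). For 11 of 12 libraries the highest of these correlations was nonetheless with the same letter. The main fit does not take the letters into account, and the replicate block does. Depth limits the low-level genes most, MITF and TFEB in siYT_XMU c among them.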
